A study of Mus musculus with 14 samples.

Results

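The glucocorticoid receptor gene Nr3c1 and 8 genes known as direct targets of the receptor (Fkbp5, Tsc22d3, Errfi1, Zbtb16, Dusp1, Mt1, Mt2 and Sgk1) were followed through 8 days of fat cell differentiation. The members were named by gene, and each was read from the probe set with the highest mean among those annotated to that gene alone. All 9 were measured, among 18193 genes that had such a probe set, and all 9 passed the brightness filter (intensity at or over 50 on 3 or more arrays of 14) that left 8682 genes to test. The cells were 3T3-L1, a mouse preadipocyte line of fibroblast character. The SETD5 arm carried a retrovirus that expresses V5-tagged SETD5, a SET domain protein that works with corepressors, from a weak viral promoter, and the empty arm carried the same virus without it. Each arm was 1 stably transduced line, so SETD5 and other differences between the lines cannot be told apart. Both arms received the same hormones. After confluence the cells were given insulin (1 μg/ml), dexamethasone (0.25 μM) and isobutylmethylxanthine (0.5 mM) for 48 h, and insulin alone from then on. RNA was hybridised at 0, 12, 24, 36, 48, 96 and 192 h, with 1 array per arm and hour. The 4 arrays from 12 to 48 h are called mixture hours here, and 96 and 192 h insulin hours.

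Dexamethasone is a synthetic glucocorticoid. In the absence of hormone the receptor is held in the cytoplasm by HSP90 and its partner chaperones, and on binding hormone it moves to the nucleus, where it binds palindromic response elements and raises or lowers transcription. Its targets include feedback regulators of the receptor itself, phosphatases and kinases, and in preadipocytes the hormone is a standard part of the differentiation mixture. Because dexamethasone was always given with insulin and isobutylmethylxanthine, a phosphodiesterase inhibitor that raises cAMP, the 3 agents cannot be told apart in these data. No culture without the mixture was followed, so the mixture and the hours elapsed cannot be told apart either. A mixture response below means only a difference between hours.

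On each array the trimmed mean intensity had been scaled to 100, and the median of the tested genes was 188 to 207. Values below are these linear intensities, differences are log2 differences of intensity plus an offset of 16, and errors are limma's standard errors (SE). A gene is called when its limma p, adjusted by the Benjamini-Hochberg method over all genes tested, is under 0.05. With 1 array per arm and hour, either the hours of a phase or the 2 arms stood in for replicates, so the p-values measure the spread among those arrays and not among separate cultures. All 8 fibroblast and preadipocyte markers were present, and none of the leukocyte, endothelial or skeletal muscle markers was over the intensity minimum on 3 arrays. The Setd5 probe set read 239 to 350 in the SETD5 arm and 249 to 378 in the empty arm. Whether it detects the viral transcript is not known here, so it was no check of the labels.

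Nr3c1, the receptor, was lower in the mixture hours, when most of its targets were higher than at 0 h. Its intensity was 624.6, 258, 360, 402, 400, 659 and 709 in the SETD5 arm at 0, 12, 24, 36, 48, 96 and 192 h, and 615, 268, 393, 513, 433, 545 and 617 in the empty arm. Both arms were lowest at 12 h, all 4 mixture hours lay below 0, 96 and 192 h in each arm, and the level came back after the mixture ended. Over both arms Nr3c1 at 12 h was 2.28-fold lower than at 0 h (log2 difference -1.19 ± 0.15, SE, limma adjusted p = 0.000154), and it was still lower at 24 h (-0.70 ± 0.15, adjusted p = 0.00409) and 48 h (-0.56 ± 0.15, adjusted p = 0.0154). At 96 and 192 h its differences from 0 h were -0.05 and 0.09, with adjusted p = 0.86 and 0.692. Of its 5 other probe sets, the 2 brightest, with mean intensities of 407 and 183, fell at 12 h by 1.40 and 1.48 on the log2 scale. A dimmer probe set with a mean of 48.0 gave -0.20, with adjusted p = 0.42.

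**Figure D1:**
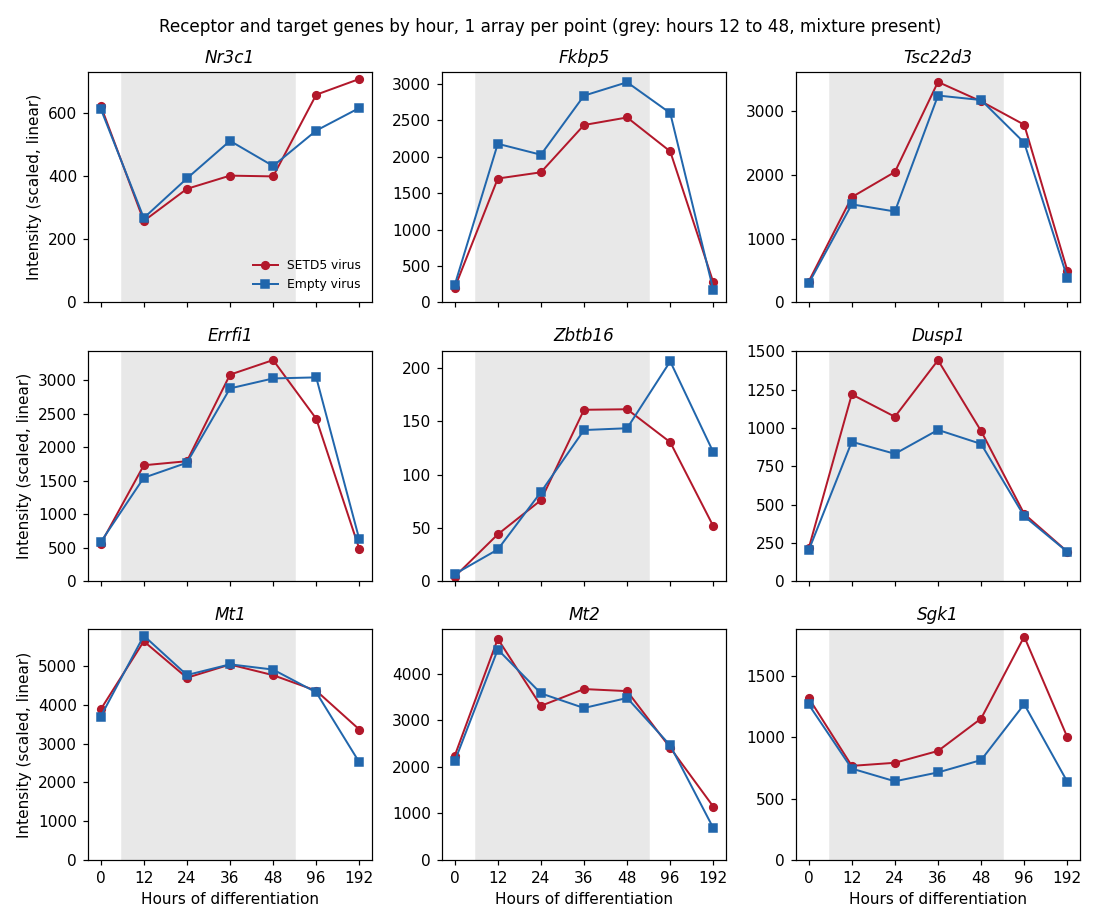
Intensity (scaled, linear) of the receptor gene and its 8 targets at each hour of differentiation, 1 array per point, in the SETD5 arm (red circles) and the empty arm (blue squares), with the mixture hours in grey. Fkbp5, Tsc22d3 and Errfi1 stay high at 96 h and are back near their 0 h level at 192 h, Dusp1 is already lower at 96 h, and Nr3c1 and Sgk1 dip in the mixture.

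Fkbp5 encodes a co-chaperone that binds HSP90 in the receptor complex and lowers the receptor's affinity for hormone. It read 199, 1699, 1785, 2433, 2537, 2071.5 and 274 in the SETD5 arm at 0, 12, 24, 36, 48, 96 and 192 h, and 237, 2176, 2026, 2836, 3020, 2597 and 170 in the empty arm. It was high at every hour from 12 to 96 h and low at 0 and 192 h, with no overlap between those hours in either arm. At 12 h it was 8.3-fold higher than at 0 h (3.05 ± 0.21, adjusted p = 6.78e-06), and at 48 h 11.9-fold higher (3.57 ± 0.21, adjusted p = 4.52e-06). Fkbp5 kept most of this rise for 48 h after the mixture was removed. At 96 h it was still 10-fold over 0 h (3.32 ± 0.21, adjusted p = 1.22e-05), and the difference of 96 h from 48 h was -0.25 ± 0.21 (adjusted p = 0.477). By 192 h it was 10.1-fold lower than at 96 h (-3.33 ± 0.21, adjusted p = 2.44e-05). A second, dimmer probe set of Fkbp5 fell by 2.95 over the same interval.

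Tsc22d3, which encodes the leucine zipper protein GILZ and is known for anti-inflammatory actions of glucocorticoids, followed the same course. Its intensities were 327, 1653, 2048.5, 3462.5, 3158, 2791 and 501 in the SETD5 arm from 0 to 192 h, and 297, 1540, 1428, 3249, 3178, 2509 and 387 in the empty arm. It climbed in steps, with 36 and 48 h above 12 and 24 h in both arms. Over both arms it was 9.72-fold higher at 48 h than at 0 h (3.28 ± 0.14, adjusted p = 7.61e-07) and 8.12-fold higher at 96 h (3.02 ± 0.14, adjusted p = 1.97e-06). At 192 h it stayed 1.39-fold over 0 h (0.48 ± 0.14, adjusted p = 0.0349), a small remainder that was lost without the 12 h arrays (adjusted p = 0.0507). One further bright probe set of Tsc22d3 moved alike, whereas a dim one with a mean intensity of 57.1 gave -0.25 at 12 h (adjusted p = 0.425).

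Errfi1 encodes an inhibitor of the epidermal growth factor receptor. It read 556, 1731, 1791.5, 3084, 3302, 2426 and 480 in the SETD5 arm at the 7 hours, and 583, 1545, 1768.5, 2879, 3028, 3044 and 623 in the empty arm. As with Tsc22d3, the 36 and 48 h values stood above those of 12 and 24 h, and the 96 h value lay inside the range of the mixture hours in the SETD5 arm and just over it in the empty arm. Errfi1 was 5.43-fold higher at 48 h than at 0 h (2.44 ± 0.15, adjusted p = 5.42e-06) and 4.67-fold higher at 96 h (2.22 ± 0.15, adjusted p = 1.98e-05). It was 4.86-fold lower at 192 h than at 96 h (-2.28 ± 0.15, adjusted p = 3.05e-05).

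Zbtb16, a zinc finger transcription factor also named PLZF, was near zero intensity at 0 h and climbed until 36 h or later. It gave 4.2, 43.9, 75.9, 161, 161, 130 and 51.5 in the SETD5 arm at the 7 hours, and 6.6, 29.7, 83.5, 142, 143, 206 and 121 in the empty arm. Its highest value came at 48 h in the SETD5 arm and at 96 h in the empty arm, and at 192 h it was still above its 0 h level in both. The differences from 0 h were 2.98 ± 0.28 at 48 h, 3.08 ± 0.28 at 96 h and 2.17 ± 0.28 at 192 h (adjusted p = 6.33e-05, 0.00012 and 0.000887). Because the 0 h intensities were far under the minimum of 50, the size of these differences hung on the offset, and for Zbtb16 at 48 h it ran from 1.64 with an offset of 64 to 4.07 with an offset of 4, called in both cases. Zbtb16 was under the minimum at 0 and 12 h in both arms. It passed the filter only through later hours, so its higher calls against 0 h were in part fixed by the filter. Its other probe sets, with mean intensities of 65.3 and 35.5, gave 1.12 and 0.76 at 12 h (limma adjusted p = 0.000755 and 0.0957).

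Dusp1 encodes a phosphatase that inactivates MAP kinases. It read 214, 1219, 1073, 1443, 980, 439 and 193 in the SETD5 arm at the 7 hours, and 201, 910, 831, 988, 896, 424 and 191 in the empty arm. All 4 mixture hours lay above 0, 96 and 192 h in both arms, and the 96 h value stood between the mixture hours and 0 h. Dusp1 was 4.79-fold higher at 12 h than at 0 h (2.26 ± 0.15, adjusted p = 5.46e-06). At 96 h it was 2.13-fold lower than at 48 h (-1.09 ± 0.15, adjusted p = 0.00393), which left 46.5% of its 48 h change on the log2 scale in the SETD5 arm and 49.3% in the empty arm. For Fkbp5 the same share was 91.9% in the SETD5 arm and 94% in the empty arm. At 192 h the difference of Dusp1 from 0 h was -0.10 ± 0.15 (adjusted p = 0.659). The region before each gene's start was read for known motifs in RefSeq's promoter windows (mouse build GRCm38.p6), which held 7 of the 9 members. Dusp1 and Errfi1 are shown because both carry the full cAMP response element TGACGTCA (in capitals), at 143 and 51 bases before the start. Errfi1 has 2 windows, and only the one shown carries the element. Of 32851 windows of 250 bases, 1.55% carry it. The match is a description of the letters only.
Dusp1, chr17:26508473-26508722, minus strand: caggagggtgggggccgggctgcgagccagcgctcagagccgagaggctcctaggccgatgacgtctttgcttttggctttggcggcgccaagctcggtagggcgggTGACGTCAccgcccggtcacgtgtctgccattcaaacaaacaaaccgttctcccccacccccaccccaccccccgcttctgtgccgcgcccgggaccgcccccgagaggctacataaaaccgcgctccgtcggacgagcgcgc
Errfi1, chr4:150854820-150855069, plus strand: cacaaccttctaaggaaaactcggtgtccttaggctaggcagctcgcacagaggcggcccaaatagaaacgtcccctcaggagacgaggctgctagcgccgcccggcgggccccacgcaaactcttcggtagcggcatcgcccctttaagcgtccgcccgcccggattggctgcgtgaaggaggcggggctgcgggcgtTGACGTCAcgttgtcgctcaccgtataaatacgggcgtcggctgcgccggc

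Mt1 and Mt2 encode metallothioneins, small proteins that bind zinc and other metals. Mt1 was bright throughout, with 3887, 5647.5, 4705, 5047.5, 4772, 4370.5 and 3368 in the SETD5 arm at the 7 hours and 3701, 5792, 4775, 5052, 4917, 4329 and 2520 in the empty arm. Mt2 gave 2237, 4754, 3312.5, 3674, 3630, 2410.5 and 1145 in the SETD5 arm, and 2118, 4524, 3581, 3266, 3483, 2462 and 684 in the empty arm. Both genes peaked at 12 h and were lowest at 192 h in both arms, and their mixture hours lay above all other hours. At 12 h Mt1 was 1.51-fold and Mt2 2.12-fold higher than at 0 h (0.59 ± 0.13 and 1.09 ± 0.18, adjusted p = 0.0041 and 0.000809). At 96 h neither was called against 0 h (0.20 ± 0.13 and 0.16 ± 0.18, adjusted p = 0.333 and 0.581), and by 192 h Mt2 was 2.43-fold below 0 h (-1.28 ± 0.18, adjusted p = 0.00123). The probe set for Mt1 is of a kind that can match related transcripts, so Mt1 and Mt2 may not be fully separate measurements, and a dim second Mt1 probe set gave -0.30 at 12 h (adjusted p = 0.12). The start regions of Mt1 and Mt2 are shown with the core of the metal response element, TGCACNC or TGCGCNC on either strand, in capitals. Within the windows shown, Mt2 carries 3 matches and Mt1 carries 1, and 21.4% of all windows carry at least 1. Sites outside the windows shown were not read, so these counts say nothing of the full promoter of either gene.
Mt1, chr8:94178839-94179088, plus strand: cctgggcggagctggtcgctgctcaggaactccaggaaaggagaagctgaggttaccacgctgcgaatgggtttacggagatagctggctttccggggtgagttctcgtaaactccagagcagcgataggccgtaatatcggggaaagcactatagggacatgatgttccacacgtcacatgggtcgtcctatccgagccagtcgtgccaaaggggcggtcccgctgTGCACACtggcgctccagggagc
Mt2, chr8:94172368-94172617, plus strand: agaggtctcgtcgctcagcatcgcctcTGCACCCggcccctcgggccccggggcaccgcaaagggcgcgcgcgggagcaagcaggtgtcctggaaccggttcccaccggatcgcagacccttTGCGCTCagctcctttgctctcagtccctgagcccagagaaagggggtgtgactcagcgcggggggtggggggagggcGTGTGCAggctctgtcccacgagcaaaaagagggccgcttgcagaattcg

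Sgk1, the serum and glucocorticoid regulated kinase, was the target that went the other way. It read 1322.5, 768, 793, 890, 1154, 1823 and 1002 in the SETD5 arm at the 7 hours, and 1269, 746, 642, 714, 815, 1271 and 638 in the empty arm. In both arms every mixture hour was below 0 h and below 96 h, and 96 h was the highest hour. Sgk1 fell at 12 h (-0.76 ± 0.16, adjusted p = 0.00283) and 24 h (-0.85 ± 0.16, adjusted p = 0.00203) relative to 0 h. At 96 h it was 1.56-fold higher than at 48 h (0.64 ± 0.16, adjusted p = 0.0354), and at 192 h 1.89-fold lower than at 96 h (-0.91 ± 0.16, adjusted p = 0.00731). The call between 96 and 48 h was lost without the 24 h or the 36 h arrays (adjusted p = 0.0587 and 0.0552). One of the 6 RefSeq start windows of Sgk1 is shown because it holds a full palindromic glucocorticoid response element, AGAACA and TGTTCT with 3 bases between (in capitals), 189 bases before that start. Of the 32851 windows, 3 hold it (0.00913%). Among the windows of Fkbp5, Tsc22d3, Errfi1, Dusp1, Mt1 and Mt2 this element was not found, which says nothing of sites outside these 250 bases. A looser form, GNACA and TGTNC with 3 bases between, is held by 0.387% of windows, and among the members' windows it matched the same place in Sgk1 and 1 place in Mt1, 94 bases before its start.
Sgk1, chr10:21993640-21993889, plus strand: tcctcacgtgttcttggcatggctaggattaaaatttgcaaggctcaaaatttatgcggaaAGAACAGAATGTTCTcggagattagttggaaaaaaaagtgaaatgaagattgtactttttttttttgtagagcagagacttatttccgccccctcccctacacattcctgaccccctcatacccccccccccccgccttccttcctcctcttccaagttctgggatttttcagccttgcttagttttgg

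The comparison of the mixture hours with 0, 96 and 192 h together was made first within each arm. In the SETD5 arm, 2 of the 9 members were called, and these were Dusp1, 4.23-fold higher (2.08 ± 0.29, limma adjusted p = 0.00289), and Nr3c1, 1.86-fold lower (-0.89 ± 0.21, adjusted p = 0.0212). Of all genes tested, 4.37% were called higher and 9.51% lower there. The call for Nr3c1 was lost without the 24, 96 or 192 h arrays (adjusted p = 0.0687, 0.0619 and 0.105). In the empty arm only Dusp1 was called, 3.4-fold higher (1.77 ± 0.29, adjusted p = 0.00784), against 4.52% of all genes called higher and 7.83% lower, while Nr3c1 gave -0.58 ± 0.21 (adjusted p = 0.0942). Fkbp5 had a larger difference than Dusp1 in the empty arm and was not called (2.33 ± 0.80, adjusted p = 0.0792), with 2597 at 96 h and 170 at 192 h inside the same phase. The median difference of the 9 members was 1.05 in the SETD5 arm and 1.08 in the empty arm, against -0.02 and -0.01 for all genes tested. Scaling to a common median moved the higher share of all calls in the SETD5 arm to 45.2%, against 31.5% as reported. Against 0 h alone, Dusp1 was again the only member called in either arm (0.714% of all genes were called higher in the SETD5 arm and 1.14% in the empty arm), and no member was called without the 24, 36 or 48 h arrays. Against 96 and 192 h alone, Dusp1 was called higher and Nr3c1 lower in the SETD5 arm (2.35% and 5.17% of all genes), and Dusp1 and Mt2 were called higher in the empty arm (3.84% of all genes), counts that fell to 0 in both arms without the 192 h arrays. By the values alone, the mixture hours lay above 0, 96 and 192 h for Dusp1, Mt1 and Mt2 and below them for Nr3c1 in both arms, which held for 12.6% of all genes above and 18.7% below in the SETD5 arm and for 10.5% and 12.2% in the empty arm. Set against 0 and 192 h only, 6 members lay above and 1 below in each arm (16.7% and 24.3% of all genes in the SETD5 arm, 14.9% and 17.2% in the empty arm). No member's mixture response was called different between the arms by limma (0 of 9 at an unadjusted p under 0.05 as well, and 0% of all genes called, with 243 genes at an unadjusted p under 0.05). That fit has 1 mean for each arm and phase and does not pair the arms by hour. With the hour as a block, a test added after the values were seen, again 0 of 9 members were called, where 0.127% of all genes were, and 4 had an unadjusted p under 0.05. Among these, Zbtb16 had the largest difference between the arms (0.74 ± 0.16, adjusted p = 0.0907).

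**Figure D2:**
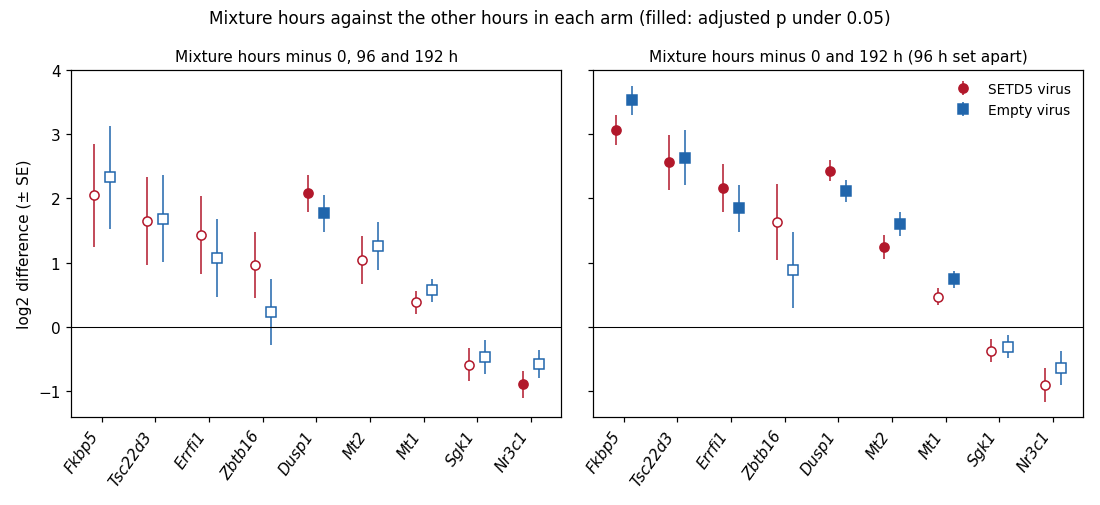
Log2 difference (± SE) of the mixture hours from 0, 96 and 192 h (left) and from 0 and 192 h with 96 h set apart (right) for each gene, SETD5 arm in red circles and empty arm in blue squares, filled where the limma adjusted p was under 0.05. With 96 h set apart, 5 targets in the SETD5 arm and 6 in the empty arm are called higher.

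Setting 96 h apart was chosen after the values were seen. In that fit the mixture hours were compared with 0 and 192 h, and Fkbp5, Tsc22d3, Errfi1, Dusp1 and Mt2 were called higher in the SETD5 arm (5 of 9, against 3.63% of all genes) and the same 5 with Mt1 in the empty arm (6 of 9, against 4.6%). Fkbp5 was 8.39-fold higher in the SETD5 arm (3.07 ± 0.23, adjusted p = 0.000297) and 11.5-fold in the empty arm (3.52 ± 0.23, adjusted p = 9.79e-05). Nr3c1 was then no longer called in the SETD5 arm (-0.90 ± 0.26, adjusted p = 0.0619). In the same fit 96 h itself was set against 0 and 192 h over both arms. Fkbp5, Tsc22d3, Errfi1 and Dusp1 were called higher at 96 h (4 of 9), where 0.415% of all genes were. That count treats the 96 h arrays of the 2 arms as separate, and within each arm only Fkbp5 was called, in the SETD5 arm (3.06 ± 0.33, adjusted p = 0.0318, with 0.0346% of all genes higher) and in the empty arm (3.59 ± 0.33, adjusted p = 0.00651, with 0.0576%). Averaged over both arms, with 96 h back among the other hours, the mixture hours differed from 0, 96 and 192 h in 8 of 9 members, 6 higher and 2 lower, with 14.2% of all genes higher and 20% lower (higher share of all calls 41.5%, or 52% after scaling to a common median). That count treats arrays of the same hour as separate, and when the arms were averaged at each hour before the fit, also chosen after the values were seen, only Dusp1 was called (adjusted p = 0.0245), with 2.18% of all genes called higher. The count of 8 was 4 without the 0 h arrays and 5 without the 36 h arrays. Counts over both arms for the pathway lists come from the fit on the 14 arrays.

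Hour by hour over both arms, all 9 members were called at 12 h relative to 0 h. Of these, 7 were higher (19.9% of all genes were) and 2, Nr3c1 and Sgk1, were lower (27.9% of all genes were). Zbtb16, which passed the filter only through hours after 12 h, is counted as higher at each hour. At 24, 36 and 48 h relative to 0 h, 6, 7 and 6 members were higher (16.4%, 12.4% and 14.4% of all genes) and 2, 2 and 1 lower (21.9%, 17% and 19.9%). At 96 h relative to 0 h the higher members were Fkbp5, Tsc22d3, Errfi1, Zbtb16 and Dusp1 (5 of 9, against 6.12% of all genes), and none was lower (9.53%). Calls of Mt1 and Nr3c1 rested in part on which hours were fitted. At 36 h the call for Nr3c1 was lost without the 12, 24 or 48 h arrays (adjusted p = 0.0668, 0.0656 and 0.0633) and that for Mt1 without the 12, 24 or 96 h arrays (adjusted p = 0.0519, 0.0543 and 0.0511). Without the 192 h arrays, Mt1 was also called at 24 and 48 h (adjusted p = 0.0175 and 0.0126) and Sgk1 at 48 h (adjusted p = 0.0338). Between 48 and 96 h, Sgk1 was called higher and Dusp1 lower at 96 h (4.33% and 3.95% of all genes). Without the 192 h arrays Nr3c1 was called higher too (adjusted p = 0.0299), and Mt2 lower (adjusted p = 0.00808). Between 96 and 192 h, 7 of 9 members were called lower at 192 h, against 4.8% of all genes, all but Nr3c1 and Zbtb16. At 192 h relative to 0 h, Tsc22d3 and Zbtb16 were higher (7.3% of all genes) and Sgk1 and Mt2 lower (12.3% of all genes). For the hours from 12 to 48 h against 0 h, scaling to a common median moved the higher share of all calls to between 53 and 55.1%, against 41.6 to 42.8% as reported.

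Genes known to respond to cAMP were read beside the members, and 10 of 12 listed were tested. Of these, 8 were higher and 1 lower at 12 h than at 0 h, where 19.9% and 27.9% of all genes were. Over both arms the mixture hours were called against 0, 96 and 192 h for 7 genes higher, among them Pde4b, Pde4d and Rgs2, and for 1 lower, the coactivator gene Ppargc1a. Of all genes, 14.2% and 20% were called there. Ppargc1a read 7.3 to 17.5 in the mixture hours of the SETD5 arm and 2.8 to 19.6 in those of the empty arm, so it passed the brightness filter only through other hours and had to differ. Pde4b and Pde4d encode phosphodiesterases that break down cAMP. Pde4b read 44.5 at 96 h against 277 at 48 h in the SETD5 arm, and 83.2 against 323 in the empty arm. Both genes were called lower at 96 h than at 48 h (Pde4b -2.02 ± 0.14, adjusted p = 0.000116, and Pde4d -1.40 ± 0.13, adjusted p = 0.000668). Of its 48 h change, Pde4b kept 6.01% in the SETD5 arm and 22.7% in the empty arm at 96 h, and Pde4d kept 40.8% and 45.4%. The orphan nuclear receptor gene Nr4a1 was also called lower at 96 h (-1.06 ± 0.20, adjusted p = 0.0155), while the clock gene Per1 kept 90.3% in the SETD5 arm and 109% in the empty arm. Per1 is in the list of further glucocorticoid targets too. Rgs2 kept 59.9% and 79.7%, and Pde3b, a further phosphodiesterase gene, 57% and 80.6%. Of the 10 genes, 3 were called lower and 1 higher at 96 h than at 48 h, where 3.95% and 4.33% of all genes were. These 10 genes had a median difference of 96 h from 48 h of -0.51, against -0.24 for the 8 targets and 0.00 for all genes tested.

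**Figure D3:**
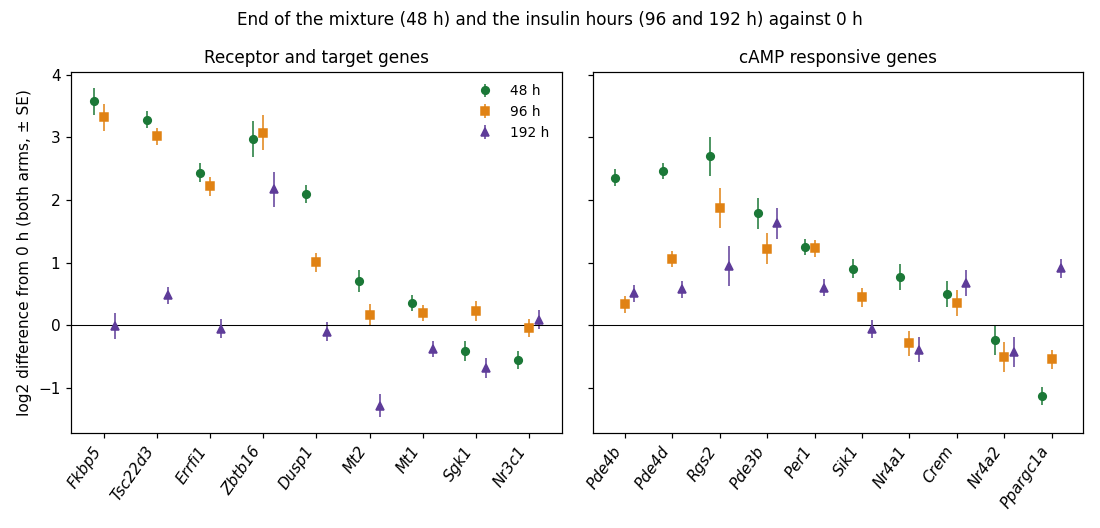
Log2 difference from 0 h (mean over both arms, ± SE) at 48 h (green circles), 96 h (orange squares) and 192 h (purple triangles) for the receptor and its targets (left) and for cAMP responsive genes (right). For Fkbp5, Tsc22d3, Errfi1 and Zbtb16 the 96 h value lies close to the 48 h value, as it does for Per1. Pde4b and Pde4d are well below it, and so is Dusp1, with smaller falls for Mt2, Rgs2 and Pde3b.

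Further glucocorticoid targets, 24 of 31 listed genes tested, moved with the members in part. At 12 h 10 were higher and 5 lower than at 0 h, at 96 h 17 were higher and none lower, and between 96 and 192 h 13 were called lower and none higher, against the shares of all genes given above. Per1, Per2, Klf15, Lcn2 and Tgm2 were under the minimum at 0 h in both arms, and Per2 and Lcn2 also at 192 h. They passed the filter only through other hours, so these counts were in part fixed by the filter. Lcn2, which encodes the iron carrier lipocalin 2, read 1149, 1950, 1382 and 1129 in the mixture hours of the SETD5 arm and 1127, 2357, 1455 and 1551 in those of the empty arm, with 0 h values of 1.3 and 3.8. Lcn2 was under the minimum at 0 and 192 h, so it passed the filter only through the hours between and had to differ from 0 h. Glul, the glutamine synthetase gene, was 14.6-fold higher at 48 h than at 0 h (3.87 ± 0.36, adjusted p = 5.34e-05) and 16.3-fold higher at 96 h (4.03 ± 0.36, adjusted p = 9.79e-05). Rgs2, a regulator of G protein signaling that is in the cAMP list too, was 2.88-fold higher in the mixture hours than in the other hours over both arms. In that comparison 7 of the list were called higher and 1 lower, where 14.2% and 20% of all genes were. The lower one was Klf15, a Krüppel-like factor gene, which passed the brightness filter only through arrays of 96 and 192 h and so had to differ. It read 0.3 to 6.1 in the mixture hours of the SETD5 arm and 0.2 to 1.2 in those of the empty arm, and 13.8 and 56.7 at 96 and 192 h in the SETD5 arm, against 62.4 and 551 in the empty arm.

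Among 15 listed inflammatory genes that glucocorticoids are known to repress, 8 were tested, and all 8 were called lower at 12 h than at 0 h, where 27.9% of all genes were. Ccl2, Ccl7, Mmp3 and Mmp13 were under the minimum of 50 at 12 h in both arms and passed the filter only through other hours. The count of 8 was thus in part fixed by the filter. The chemokine gene Ccl2 read 28.3 at 12 h against 331 at 0 h in the SETD5 arm, and 25.9 against 461 in the empty arm. Of the 8 genes, 7 were lower at 96 h and 6 at 192 h than at 0 h, where 9.53% and 12.3% of all genes were. Ptgs2 was under the minimum at 96 and 192 h in both arms, so these counts too were in part fixed by the filter. Over both arms, 4 were called lower in the mixture hours than in the other hours (20% of all genes were), namely Ccl2, the chemokine gene Ccl7, the metalloprotease gene Mmp3 and the adhesion gene Vcam1, where Mmp3 fell by 1.32 and Vcam1 by 0.49 on the log2 scale. Ccl2 and Ccl7 were under the minimum of 50 at all mixture hours, so both passed the filter only through other hours. Of 9 tested chaperones of the receptor complex, 7 were higher at 12 h than at 0 h, where 19.9% of all genes were, among them Stip1 (0.93 ± 0.15, adjusted p = 0.000758), Fkbp4 (0.71 ± 0.12, adjusted p = 0.000845) and the HSP90 gene Hsp90aa1 (0.54 ± 0.12, adjusted p = 0.00428), and at 48 and 96 h 1 of 9 was, where 14.4% and 6.12% of all genes were. Over both arms, the co-chaperone genes Stip1, Ppp5c and Stub1 (3 of 9, against 14.2% of all genes) were called higher in the mixture hours than in the other hours (0.65, 0.49 and 0.40).

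Around the receptor itself, 3 of 10 genes for related steroid receptors and ligand metabolism were bright enough to test. Nr3c2, the mineralocorticoid receptor, read 15.6 at 12 h against 69 at 0 h in the SETD5 arm, and 11.9 against 64.4 in the empty arm. It too passed the brightness filter only outside the mixture hours. Hsd11b1, whose enzyme regenerates active glucocorticoid from its inert form, read 184 at 48 h against 11 at 0 h in the SETD5 arm, and 341 against 13.6 in the empty arm. The 0 h values were far under the minimum, so no fold is given. At 192 h it read 201 in the SETD5 arm and 1353 in the empty arm. Over both arms, Nr3c2 and H6pd, whose enzyme supplies the cofactor of Hsd11b1, were called lower in the mixture hours than in the other hours, H6pd with a difference of -0.59. Among 11 tested coregulators of the receptor, 1 was higher and 2 were lower in that comparison, where 14.2% and 20% of all genes were. They were the remodeler gene Smarca4 (0.61 ± 0.12, adjusted p = 0.00336) and the coactivator genes Ncoa1 and Ncoa2 (-0.55 and -0.48). For metal responsive genes beyond the metallothioneins, 3 of 7 were higher and 1 lower at 12 h, where 19.9% and 27.9% of all genes were, with Gclc, for glutathione synthesis, 7.39-fold higher (2.89 ± 0.25, adjusted p = 2.1e-05) and Hmox1, heme oxygenase 1, 5.26-fold lower (-2.39 ± 0.19, adjusted p = 1.46e-05). Hmox1 was under the minimum at 12 h in both arms, so it passed the filter only through other hours.

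The SETD5 arm was then compared with the empty arm at the same hours. In the mixture hours 0 of 9 members were called, where 1.55% of all genes were. An unadjusted limma p under 0.05 was reached by 1247 of the 8682 genes tested and by 2 of the 9 members. These were Dusp1, higher in the SETD5 arm at 4 of 4 mixture hours (0.36 ± 0.09, adjusted p = 0.0896), and Sgk1, also higher at 4 of 4 (0.29 ± 0.09, adjusted p = 0.186). Fkbp5 was lower in the SETD5 arm at 4 of 4 mixture hours by 0.25 ± 0.13 (adjusted p = 0.434). Over all 7 hours no member was called, with 3.62% of all genes called. Sgk1 and Dusp1 were higher in the SETD5 arm at 7 of 7 hours, by 0.34 ± 0.08 and 0.23 ± 0.08 (adjusted p = 0.0543 and 0.134). The median of all genes tested was 0.03 in this comparison. Dusp1 differed by only 0.008 at 192 h, where the median of all genes was 0.12. Its difference in the insulin hours changed sign with quantile normalization and with scaling to a common median. The share of all genes with the same sign at every hour was not computed. Sgk1 passed the threshold when every probe set was tested on its own (adjusted p = 0.0473) and with an intensity trend in the prior (adjusted p = 0.0498).

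In the insulin hours 3 of 9 members were called, against 24% of all genes (13.7% higher and 10.3% lower), and only 2 hours enter. Sgk1 was 1.49-fold higher in the SETD5 arm (0.58 ± 0.13, adjusted p = 0.0121), with 1823 and 1002 at 96 and 192 h, against 1271 and 638 in the empty arm. Zbtb16 was 1.75-fold lower (-0.81 ± 0.15, adjusted p = 0.00537), with 130 and 51.5 in the SETD5 arm against 206 and 121 in the empty arm, and Errfi1 was 1.27-fold lower (-0.35 ± 0.11, adjusted p = 0.0413). None of the 3 was called without the 192 h arrays (adjusted p = 0.148, 0.113 and 0.246), and the call for Errfi1 was also lost without the 12, 24, 36 or 96 h arrays. For Zbtb16 the virus difference itself changed between phases, by -0.96 ± 0.18 for insulin hours minus mixture hours (adjusted p = 0.0202, where 3.94% of all genes were lower), and this test, added after the values were seen, lost its call without the 12, 36 or 192 h arrays (adjusted p = 0.0534, 0.0679 and 0.177). The other probe sets of Zbtb16 gave -0.06 and -0.29 between the arms in the mixture hours, against 0.15 for the main one. None of these was called. At 96 and 192 h they too were lower in the SETD5 arm, and their change between phases is not given here. Sgk1 showed no called change between the phases (0.29 ± 0.16, adjusted p = 0.278). Scaling to a common median moved the higher share of all calls to 45.2%, against 57.1% as reported, in the insulin hours, and to 62.5%, against 75.5%, over all hours.

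**Figure D4:**
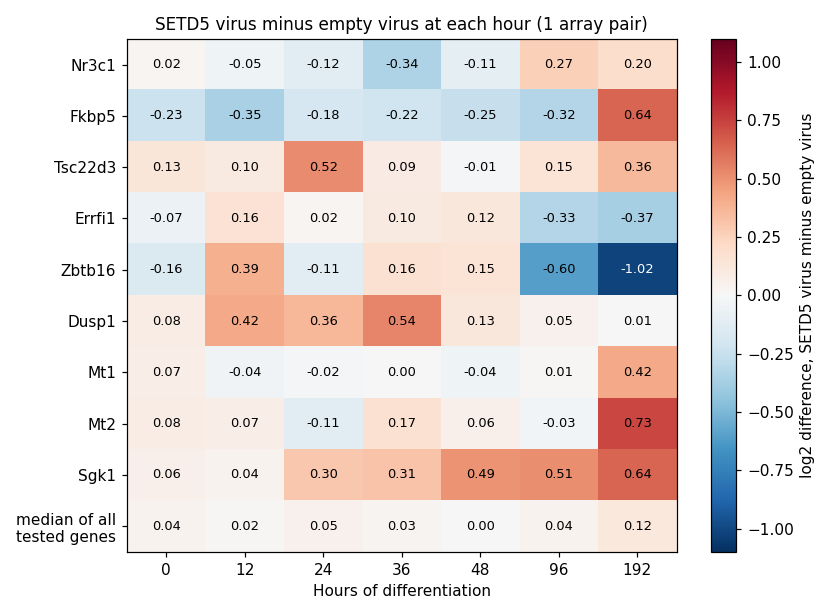
Log2 difference of the SETD5 arm from the empty arm at each hour (1 array pair per cell, red for higher and blue for lower in the SETD5 arm) for each gene, with the median of all tested genes in the last row. Sgk1 and Dusp1 are above 0 at 7 of 7 hours, Dusp1 by only 0.008 at 192 h. The largest differences, for Zbtb16 and Mt2, fall at 192 h.

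Fat cell markers were highest in the insulin hours and differed between the arms. The summed intensity of the 6 adipocyte markers read here (of 8 listed, all 6 over the minimum) was 1681 in the SETD5 arm and 1496 in the empty arm at 0 h. It was 1355 to 5454 in the SETD5 arm and 1175 to 10740 in the empty arm in the mixture hours, and 9847 to 20170 against 23530 to 36300 in the insulin hours. The part of this difference in the values of Zbtb16, Errfi1, Sgk1, Klf15 and Hsd11b1 was not tested, and in bulk RNA fewer cells with a transcript and less transcript per cell cannot be told apart. Fkbp5 and Tsc22d3 were not called between the arms in the insulin hours (0.16 ± 0.19 and 0.26 ± 0.14, adjusted p = 0.577 and 0.219). The value for Fkbp5 averages differences of opposite sign, -0.32 at 96 h and 0.64 at 192 h.

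Some members shared a profile over the 14 arrays. Pearson's r of the log2 values was 0.966 between Fkbp5 and Tsc22d3, 0.958 between Fkbp5 and Errfi1 and 0.976 between Tsc22d3 and Errfi1. Mt1 and Mt2 had r = 0.978. Nr3c1 ran against Dusp1 (r = -0.813), and Sgk1 was close to none of the targets, with r from -0.394 with Dusp1 to -0.036 with Errfi1. All these values describe arrays that share hours, and they carry no test.

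Over all genes tested, the profile most like that of Fkbp5 belonged to Ifi204 (r = 0.985), followed by Ear3 and Tsc22d3. Tsc22d3 was most like Errfi1, Cebpd (r = 0.972), an early transcription factor of adipogenesis, and Ear3. The nearest to Dusp1 were Prg4 (r = 0.976), Pip and Samhd1. Zbtb16 lay nearest to Foxo1 (r = 0.945), a forkhead factor gene in insulin signaling, then Pik3r1 and Orm3. Nr3c1 was nearest to Sgce (r = 0.973), Stxbp3 and Zmym3, and Sgk1 to Prag1 (r = 0.93), Arhgdib and Zfp869. Errfi1 had Tsc22d3, Ear3 and Peli2 as its nearest genes. Mt1 and Mt2 had each other first, then Rbmxl1 and Ap2m1 for Mt1 and Tbc1d1 and Slc19a2 for Mt2.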

How the data were processed

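RNA of 3T3-L1 cells was hybridised to 14 Affymetrix Mouse Genome 430 2.0 arrays. The deposited intensities are average differences that the authors computed with GeneChip Analysis Suite, and the trimmed mean of each array (2% off each end) is 100. Gene names came from the platform annotation, in which 34944 of 45100 probe sets have 1 symbol, 932 several and 9160 none, with 64 controls left out. Intensities plus 16 were put on the log2 scale and fitted with limma 3.58.1 in R 4.3.3, with Benjamini-Hochberg adjustment over 8682 genes. The mixture comparisons used a mean for each arm and phase (0 h, mixture hours, insulin hours), the comparisons of arms used the hour as a block, and the single hours used the arm as a block. Because arms were sampled at the same hours, arrays of 1 hour were paired by hour, as the labels give it.

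Members and lists were chosen with earlier results of these data known. All members are named, up to 4 called genes of each list by the size of the mixture difference over both arms, and the 3 genes most like each member. Nr4a1, Per1, Per2, Tgm2, Pde3b, Ptgs2, Mmp13, Fkbp4, Hsp90aa1 and Hsd11b1, and the genes of the closing paragraph on list genes, were named after their values were seen. No culture, extraction or scan batch could be tested, since the labels give none. The number of arrays limits the precision. The fits were tested on simulated data with known differences, with noise drawn separately for each array. Such data cannot show what follows when arrays of the same hour are alike. Alternatives covered scaling, offset, filter, probe sets, prior, mixture hours, the block and leaving out each hour.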

Additional observations from a re-analysis of the deposited data

Results flagged for a closer look

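For each member, the difference of the SETD5 arm from the empty arm was examined for an hour far from the others, as were its 4 mixture values within each arm. Of the 27 groups of values, 3 held such an hour, and chance alone picks out about 1 in 20 groups. All 3 were the 192 h pair. Fkbp5 was 0.64 higher in the SETD5 arm on the log2 scale at 192 h and lower in it at the 6 other hours, Mt1 was 0.42 higher at 192 h, and Mt2 was 0.73 higher. Each rests on 1 array per arm. For Zbtb16 the difference between the arms itself differed between phases, by -0.96 for insulin hours minus mixture hours (limma adjusted p = 0.0202). This is from its main probe set, and in the mixture hours its other probe sets had the opposite sign.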

How the results depend on the processing

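Counts below are of the 9 members called. For mixture hours against 0, 96 and 192 h in the SETD5 arm (2), 96 h set apart gave 5, and leaving out each hour's pair of arrays in turn gave 1 to 5 (1 without 24 h, 5 without 96 h). In the empty arm (1), 4 means, a trended prior, an offset of 64 and median scaling gave 3 each, 96 h set apart gave 6, and leaving out hours 1 to 6. Over both arms (8), averaging the arms at each hour gave 1 and leaving out hours 4 to 8. The difference between the arms stayed at 0 in each setting run, with 243 genes at an unadjusted p under 0.05, or 1381 with the hour as a replicate block (11 genes called, no member). Mixture hours against 0 h alone (1 in each arm) gave 0 with mixture hours 12 to 36, and 0 to 3 when hours were left out. Against 96 and 192 h, the SETD5 arm (2) gave 1 with no filter and with hours 12 to 36, and 0 to 4 when hours were left out. The empty arm (2) gave 1 with quantile normalization, an offset of 4, no filter, a minimum of 100 and hours 12 to 36, and 0 to 6 when hours were left out.

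Between the arms, the mixture hours kept 0. The insulin hours (3) gave 0 with no replicate block and 0 to 4 when hours were left out (0 without 192 h). All hours (0) gave 1, Sgk1, with every probe set on its own and with the trended prior, and 0 to 1 when hours were left out.

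Some small differences changed sign. Quantile normalization gave 0.056 for Mt1 between the arms in the mixture hours, -0.0027 for Dusp1 in the insulin hours, 0.032 for Fkbp5 at 192 h against 0 h and 0.0023 for Mt1 at 96 h against 48 h. Scaling to a common median gave -0.028 for Dusp1 in the insulin hours, 0.0090 for Nr3c1 at 96 h against 0 h and 0.044 for Fkbp5 at 192 h against 0 h. When hours were left out, Zbtb16 ran from -0.75 to 0.89 for the mixture hours in the empty arm. Between the arms in the insulin hours, Fkbp5 ran from -0.32 to 0.64 and Mt2 from -0.030 to 0.73. Over all hours, Nr3c1 ran from -0.067 to 0.034, Errfi1 from -0.086 to 0.0021 and Mt1 from -0.0030 to 0.074. For insulin hours minus mixture hours, Fkbp5 ran from -0.073 to 0.90, Tsc22d3 from -0.022 to 0.19 and Mt2 from -0.077 to 0.68. Across the planned settings run for single genes, 1708 values kept direction and call, 46 gained a call, 39 lost one and 16 changed sign. In the settings added after the values were seen, 8 kept both, 9 gained a call and 1 lost one. The cause of these changes was not tested, except that fewer hours or more genes enter where the setting says so.

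Over all genes, the 135 calls between the arms in the mixture hours became 74 with quantile normalization, 82 with an offset of 4, 5 with no filter, 282 with every probe set and 1 with no block. The 2085 in the insulin hours became 1333 with no filter, 17 with no block and 359 without 192 h. The 314 over all hours became 106 with no filter, 821 with every probe set and 1 with no block. For the change between phases, 516 became 312 with an offset of 4 and 131 with no filter. The 2972 mixture calls over both arms became 4660 with every probe set and 695 with arms averaged, and the 1072 of the empty arm became 1688 with every probe set and 683 with hours 12 to 36. Scaling to a common median moved the higher share of calls against 0 h alone to 42.8% in the SETD5 arm and 42.2% in the empty arm, against 28.1% and 25.2% as reported, and against 96 and 192 h in the SETD5 arm to 42%, against 31.2%. With 1 array per arm and hour, hours stood in for replicates, and low intensities such as Zbtb16 at 0 h limit the size of a difference.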

Other observations

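Several list genes differed between the arms in the insulin hours, where 13.7% of all genes tested were called higher and 10.3% lower in the SETD5 arm. Of 24 tested glucocorticoid targets beyond the members, 2 were higher in the SETD5 arm (Cebpd and Cited2) and 7 lower. Lpin1, which encodes a phosphatidate phosphatase of fat synthesis, read 151 and 136 at 96 and 192 h in the SETD5 arm, against 435 and 681 in the empty arm (-1.82 ± 0.22, SE, limma adjusted p = 0.00109). Of 8 tested inflammatory genes, 4 were higher in the SETD5 arm and none lower. The metalloprotease gene Mmp3 read 124.5 and 319 in the SETD5 arm, against 49.6 and 72.8 in the empty arm (1.51 ± 0.23, adjusted p = 0.00272), and Vcam1 read 863 and 841 against 378 and 462 (1.00 ± 0.16, adjusted p = 0.00274). Nrip1, a nuclear receptor corepressor gene, read 417 and 369 in the SETD5 arm, against 951 and 1798 in the empty arm (-1.70 ± 0.21, adjusted p = 0.00109). Adipocyte markers summed to 9847 to 20170 in the SETD5 arm and 23530 to 36300 in the empty arm at the same hours, and their part in these differences was not tested.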
